A study of Mus musculus with 10 samples.

Results

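The 85 intronic polyadenylation sites that the authors listed as used differently in 4T1 cells and in 168FARN cells lie in 79 genes. They are all the rows of the authors' 2 deposited tables for this pair of lines, out of 2311 rows in all the deposited tables of the series. Each listed site has an adjusted p of at most 0.098 for use relative to the last exon in the authors' deposited table, so a difference in use is what chose these sites and is not itself a finding. Described here is what the choice did not fix, namely whether the intronic site or the last exon differed between the lines, in which genes, and what the same sites did in other lines.

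The study measured polyadenylated 3' ends by 3'-end sequencing in cultured mouse mammary tumour cells of the 4T1 family, in 10 libraries of 5 groups. The question it put to these lines was whether the use of intronic polyadenylation sites differs between metastatic and non-metastatic cells. 4T1 is labelled invasive and is named metastatic in the design, and 168FARN is labelled non-invasive and is named non-metastatic. Each was measured in 2 libraries, and both lines were grown in DMEM with serum. The labels give no treatment for the 4T1 libraries used here, while the design speaks of mock-transfected 4T1 cells as the control of an antisense group. No source used here tells if the libraries of a line were grown as separate cultures, and p-values then speak only of the spread between libraries, which may be technical. The tests below share that spread across the sites of a fit, so a very small p-value does not rest on the libraries at that site alone. With 2 libraries a line, an exact two-sided permutation test cannot go below p = 0.3333, so single values are given without such a test. In bulk RNA, fewer cells using an end and less RNA from it per cell cannot be told apart.

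The deposited peak lists held 2499475 and 2795040 reads for the 4T1 libraries, and 2875561 and 3024906 reads for the 168FARN libraries. Intervals and floors given below cover counting error only, since no molecular identifiers are named for these libraries.

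A gene transcribed by RNA polymerase II can end at its last exon or earlier, at a polyadenylation signal inside an intron. An intronic end cuts the transcript short, and the shortened mRNA can encode a protein without its C-terminal part or be degraded. U1 small nuclear RNA, which pairs with 5' splice sites, is known to hold back such early ends, and splicing of the intron competes with them. Use of a site is therefore read as a ratio, and the ratio can move through either of its terms.

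Use was lower in 4T1 at 64 sites in 60 genes and higher in 4T1 at 21 sites in 19 genes. At the sites lower in 4T1, the median use was 2.44% of site and last-exon reads in 4T1, against 15.4% in 168FARN. At the sites higher in 4T1, the median use was 12.6% in 4T1, against 0.623% in 168FARN. At 81 of the 85 sites both 4T1 libraries lay on the same side of both 168FARN libraries. At 2 of the other 4, Prrx1 among them, the libraries overlapped, and the remaining pair, Tsnax_1 and Ucp2, had no read at either end in 1 of the 168FARN libraries. The test of site against last exon (edgeR quasi-likelihood, Benjamini-Hochberg adjusted p under 0.05 over the 85 sites) called 75.3% of the sites lower and 24.7% higher, which is all of them. Because the sites were chosen on that contrast, nothing is read from these shares or from the 81 sites without overlap. Sites that were not listed have no values of use here, so no share over all sites can stand beside the 81.

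The 2 ends were then tested apart, each with its own edgeR fit over the 85 sites. The 5 genes with more than 1 listed site hold 11 of them. Their shared last exon enters the last-exon fit and the counts once per site, so those entries are not independent. Fold changes below are 4T1 minus 168FARN on the log2 scale with the standard error of that fit. Of all listed sites, 47.1% had fewer site reads in 4T1 and 16.5% had more. For the last exon, 18.8% had fewer reads in 4T1 and 44.7% had more. Over all 3' ends of the same libraries past a low-count filter, 11.3% were lower in 4T1 and 9.82% higher (edgeR adjusted p under 0.05). That fit used another scaling and adjusted over all peaks, so the shares are not like for like. Among the 64 sites with lower use, the site fell in 4T1 at 40, and the last exon rose at 37. The site fell while the last exon did not pass the test at 22 of these sites, the last exon rose while the site did not pass at 19, and both happened at 15. Both ends rose at 3, both fell at 3, and neither passed at 2. Among the 21 sites with higher use, the site rose at 11 and the last exon fell at 13. The site rose alone at 6, the last exon fell alone at 9, both happened at 4, both ends rose at 1 and neither passed at 1. The same contrast listed the sites, so these counts describe how the ratio moved and do not test that it moved. They also depended on the method. Among the sites with lower use, the site fell alone at 30 and the last exon rose alone at 15 with TMM scaling. These counts were 29 and 16 with peak-list totals and 22 and 29 with DESeq2. Among those with higher use, the site rose alone at 4, 3 and 4 with these settings, and the last exon fell alone at 9 with each.

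**Figure D1:**
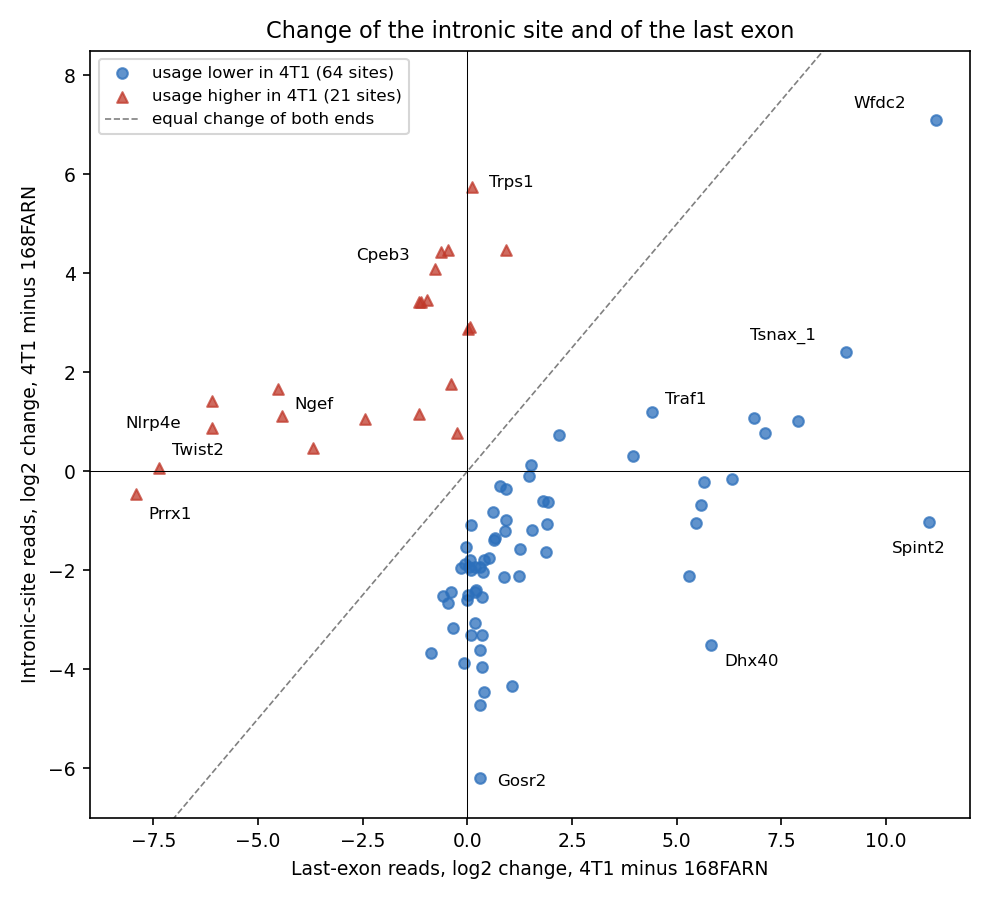
Each of the 85 points is a listed site. The vertical axis is the log2 change of intronic-site reads and the horizontal axis that of last-exon reads, both 4T1 minus 168FARN on means of normalized reads with a pseudocount of 0.5. The 64 sites with lower use in 4T1 lie under the dashed line of equal change and the 21 with higher use above it, with 1 arm along the vertical axis where the last exon hardly moved and another along the horizontal axis.

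By size of change rather than by test, 47 sites changed mainly at the site, 27 mainly at the last exon and 11 at both. Mainly at the site means that the site held at least 66.67% of the summed absolute log2 changes of both ends, and mainly at the last exon that it held at most 33.33%. Of the sites with lower use, 35 changed mainly at the site, 10 at both and 19 mainly at the last exon. Of those with higher use, 12 changed mainly at the site, 1 at both and 8 mainly at the last exon. Last-exon reads differed by less than 0.5 log2 at 34 sites, 28 of them lower in 4T1 and 6 higher.

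**Figure D2:**
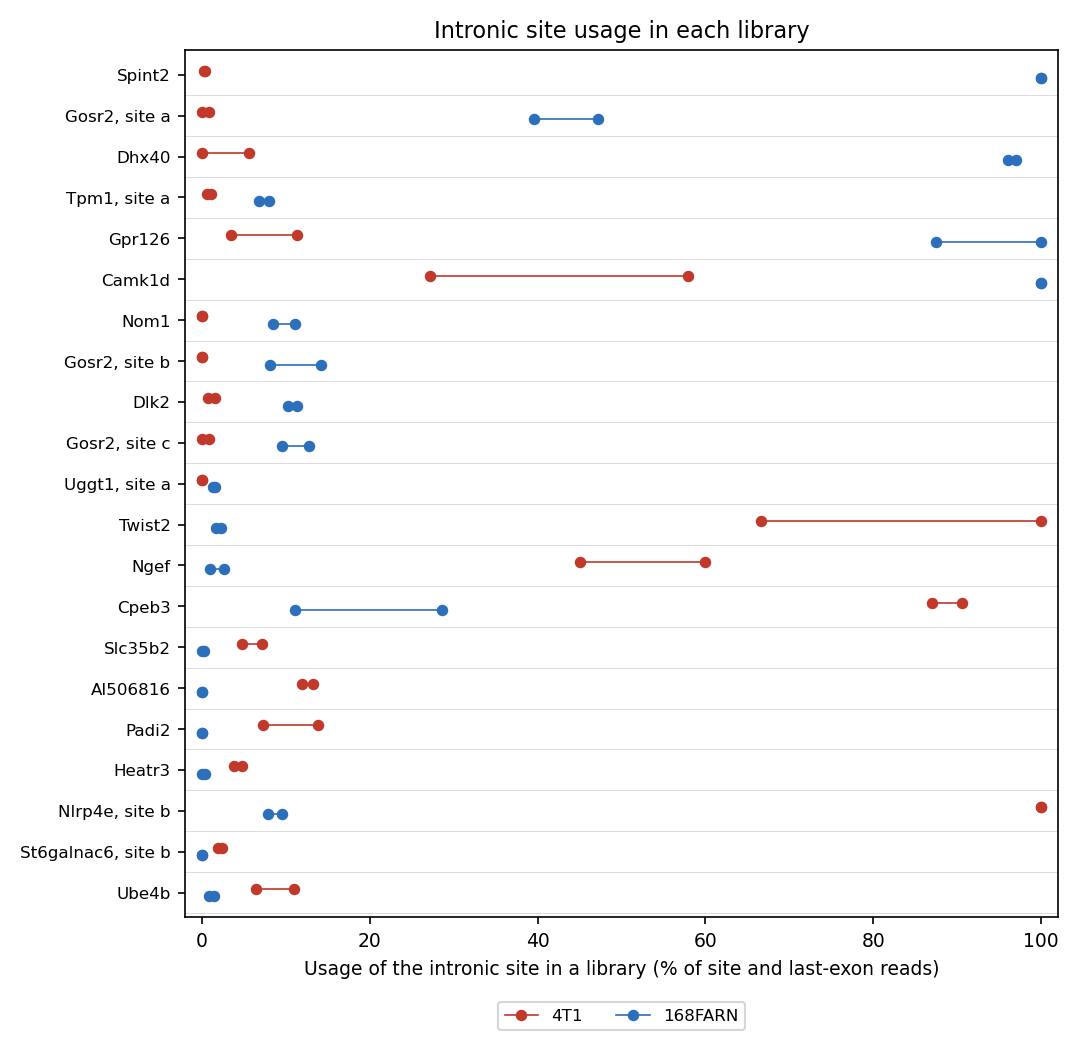
Use of the intronic site in each library, in percent of site and last-exon reads, for 11 of the 12 sites with the most negative and the 10 with the most positive fold change in the authors' deposited table. Red points are the 2 4T1 libraries and blue points the 2 168FARN libraries, joined by a line, and letters mark sites of the same gene. The lines do not overlap at any site drawn, and both 168FARN libraries stand at 100% at Spint2 and Camk1d and at 0 at Padi2, AI506816 and St6galnac6 site b.

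Gosr2, a SNARE protein of transport between the endoplasmic reticulum and the Golgi, held 3 listed sites, all lower in 4T1. Site a (mm9 chr11:103544527-103545247, minus strand) had 1 and 0 reads in 4T1, against 81 and 92 in 168FARN. Site b (chr11:103543550-103543781) had 0 and 0 reads in 4T1, against 11 and 17 in 168FARN, and site c (chr11:103542809-103543068) had 1 and 0, against 13 and 15. No 4T1 library overlapped a 168FARN library at any of the 3. The shared last exon held 120 and 117 reads in 4T1, against 124 and 103 in 168FARN, and its change of 0.31 ± 0.23 did not pass the test (edgeR adjusted p = 0.243). Use of site a was 0.413% ± 0.584 in 4T1 and 43.3% ± 5.42 in 168FARN (SD, n = 2 each). Reads at site a were 146 times as many in 168FARN (95% interval 25.8 to 5790, exact conditional binomial), and the site fell in 4T1 with an edgeR adjusted p of 0.00264. Site b was at least 7.75-fold lower in 4T1, taking 3 reads over the line as the floor. The 3 sites share 1 last exon, so they are not independent of each other.

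Tpm1 encodes a tropomyosin, which coats actin filaments, and held 2 sites on the minus strand of chromosome 9. Site a (chr9:66875487-66876408) had 16 and 12 reads in 4T1, against 147 and 145 in 168FARN. Site b (chr9:66876646-66877541) had 17 and 16 reads in 4T1, against 72 and 81 in 168FARN. Both were low in both 4T1 libraries, while their last exon held 1516 and 2024 reads in 4T1, against 1699 and 1975 in 168FARN. Site a fell by 3.12 ± 0.22 (edgeR adjusted p = 0.00309) and site b by 1.96 ± 0.16 (edgeR adjusted p = 0.00335). The last exon's 0.19 ± 0.14 did not pass (edgeR adjusted p = 0.242).

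Uggt1, which tags misfolded glycoproteins in the endoplasmic reticulum, also lost reads at both of its sites. Site a (chr1:36225251-36225580) had 0 and 0 reads in 4T1, against 7 and 9 in 168FARN, and was at least 4.45-fold lower in 4T1. Site b (chr1:36226688-36227101) had 0 and 1 reads in 4T1, against 7 and 14 in 168FARN. These are low counts beside a last exon of 515 and 671 reads in 4T1 and 525 and 581 in 168FARN, so use stayed low throughout, at most 2.35% in a library. The call at site b was lost without 4T1 replicate 1 (edgeR adjusted p = 0.0679), and the small rise of the last exon, 0.34 ± 0.15, was lost without 168FARN replicate 1 (edgeR adjusted p = 0.318).

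**Figure D3:**
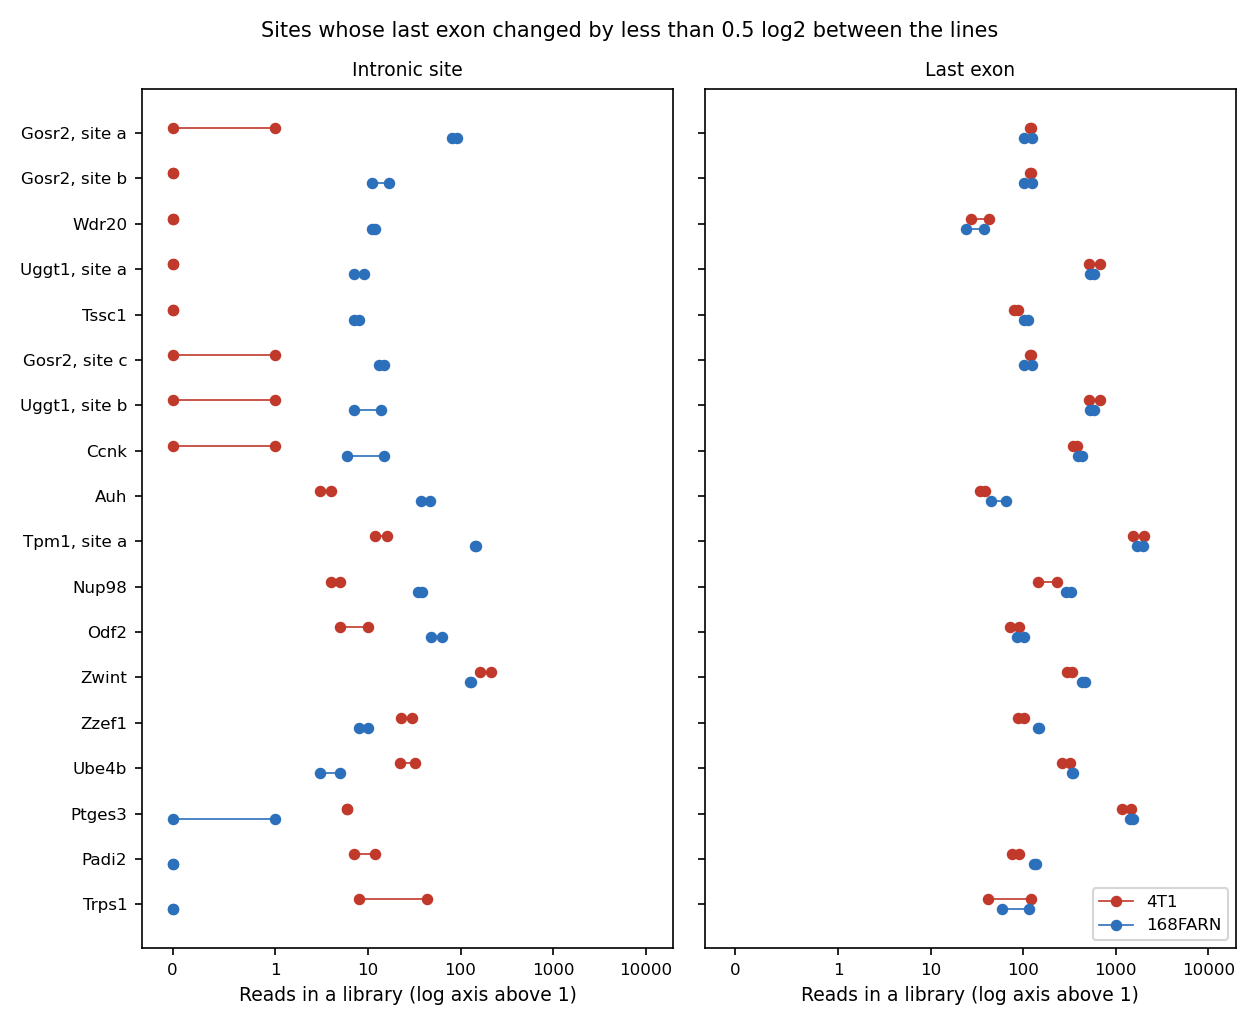
Reads in each library at the intronic site (left) and the last exon (right), on a log axis above 1 read, for the 12 sites with the largest fall and the 6 sites with higher use among those whose last exon changed by less than 0.5 log2. Red points are the 2 4T1 libraries and blue points the 2 168FARN libraries. The lines part at the site and lie close together at the last exon, as at Gosr2 site a with 1 and 0 site reads in 4T1, against 81 and 92 in 168FARN.

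Factors of RNA processing and transcription were among the genes whose site fell alone. Wdr33, the subunit of the cleavage and polyadenylation specificity factor that binds the polyadenylation signal, had 34 and 64 site reads in 4T1, against 178 and 223 in 168FARN. Its last exon had 185 and 176 reads in 4T1, against 195 and 217 in 168FARN. Its use was 21.1% ± 7.88 in 4T1 and 49.2% ± 2.09 in 168FARN (SD, n = 2 each), and the site fell by 1.79 ± 0.24 (edgeR adjusted p = 0.00793). The last exon's 0.07 ± 0.20 did not pass (edgeR adjusted p = 0.785), so the lower use of this site went with fewer site reads. Ccnk, the cyclin partner of the transcription kinase Cdk12, had 0 and 1 site reads in 4T1, against 6 and 15 in 168FARN, while its last exon held 342 and 384 in 4T1 and 389 and 429 in 168FARN. Its call was lost with any of 3 libraries left out, with adjusted p up to 0.106 without 4T1 replicate 1 (edgeR).

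At Ccnd2, Tpx2 and Odf2 as well, the site fell while the last exon did not pass the test. Ccnd2, a D-type cyclin, had 43 and 49 site reads in 4T1, against 216 and 185 in 168FARN, while its last exon held 1614 and 1649 in 4T1 and 1953 and 2067 in 168FARN. Its site fell by 1.88 ± 0.19 (edgeR adjusted p = 0.00505), and its last exon differed by -0.05 ± 0.14. Tpx2, a spindle factor that activates Aurora A, had 4 and 5 site reads in 4T1, against 32 and 33 in 168FARN, while its last exon held 255 and 340 in 4T1 and 287 and 410 in 168FARN. Odf2, a protein of the centriole appendages, had 5 and 10 site reads in 4T1, against 48 and 63 in 168FARN, while its last exon held 71 and 89 in 4T1 and 103 and 86 in 168FARN. No library of one line overlapped the other line at these 3 sites, and the last exons of Tpx2 and Odf2 differed by 0.02 ± 0.17 and -0.00 ± 0.26.

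Further deep sites of this kind lay in enzymes, a chaperone and a repair gene. Adk, adenosine kinase, had 22 and 20 site reads in 4T1, against 97 and 107 in 168FARN, while its last exon held 308 and 359 in 4T1 and 360 and 387 in 168FARN. Mms22l, which acts at stalled replication forks, had 21 and 20 site reads in 4T1, against 85 and 105 in 168FARN, while its last exon held 44 and 67 in 4T1 and 59 and 68 in 168FARN. Its use was high in both lines, at 27.6% ± 6.59 in 4T1, against 59.9% ± 1.18 in 168FARN (SD, n = 2 each). Ppm1a, a serine/threonine phosphatase, had 41 and 40 site reads in 4T1, against 144 and 136 in 168FARN, while its last exon held 196 and 210 in 4T1 and 229 and 265 in 168FARN. Tcp1, a subunit of the CCT chaperonin, had 40 and 44 site reads in 4T1, against 96 and 118 in 168FARN, while its last exon held 1904 and 2485 in 4T1 and 2075 and 2803 in 168FARN. Among these 4, site changes ran between -1.10 and -2.02 on the log2 scale, and none of the last exons passed the test. Fgfr1op2 had 60 and 49 site reads in 4T1, against 389 and 326 in 168FARN, while its last exon held 53 and 144 in 4T1 and 136 and 159 in 168FARN. Its 4T1 libraries differed among themselves at the last exon, so its use was 39.2% ± 19.6 in 4T1 and 70.7% ± 4.86 in 168FARN (SD, n = 2 each). Hip1, which links clathrin coats to actin, had 1 and 3 site reads in 4T1, against 19 and 10 in 168FARN, while its last exon held 222 and 239 in 4T1, against 239 and 240 in 168FARN, and its call was lost with any of 3 libraries left out (edgeR adjusted p up to 0.132, without 4T1 replicate 1).

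The other 6 sites that fell alone were in Wdr20, Txnrd2, Obfc1, Auh, Nup37 and Tssc1. Neither Wdr20 nor Tssc1 had a site read in 4T1, against 12 and 11 and 7 and 8 reads in 168FARN, and the floor makes them at least 6.44-fold and 4.18-fold lower in 4T1. The Nup37 call was lost without 4T1 replicate 2 (edgeR adjusted p = 0.0774), without 168FARN replicate 1 (0.0881) and without 168FARN replicate 2 (0.0879), and with DESeq2 (0.114) and limma (0.0785).

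At 15 sites in 14 genes the site fell and the last exon rose, so each end shifted the ratio the same way. This class depended on the scaling and on single libraries. With TMM scaling or with peak-list totals it held 11 sites, since the last exons of Uggt1 (both sites), Nop2, Ccnl2, Sptbn1 and Wdr70 no longer passed (edgeR adjusted p = 0.0615 to 0.138 with TMM and 0.0746 to 0.148 with peak-list totals) while 2 other sites came in. It held 10 sites without 4T1 replicate 1, 9 without 4T1 replicate 2, 5 without either 168FARN library and 2 with DESeq2 (Dhx40 and Nom1). Dhx40, a DEAH-box RNA helicase, showed a nearly complete exchange. Its site (chr11:86601032-86601262, minus strand) had 3 and 0 reads in 4T1, against 24 and 32 in 168FARN. Its last exon had 50 and 101 reads in 4T1, against 1 and 1 in 168FARN. Site reads were 15.7 times as many in 168FARN (95% interval 5.11 to 78.6) and last-exon reads 89.6 times as many in 4T1 (95% interval 24.4 to 747, both exact conditional binomial). Use was 2.83% ± 4.00 in 4T1 and 96.5% ± 0.686 in 168FARN (SD, n = 2 each).

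Other genes of this class had reads at both ends in both lines. Cflar, the caspase-8 inhibitor cFLIP, had 14 and 23 site reads in 4T1, against 41 and 59 in 168FARN, while its last exon held 86 and 188 in 4T1, against 47 and 61 in 168FARN. Its use was 12.4% ± 2.19 in 4T1 and 47.9% ± 1.82 in 168FARN (SD, n = 2 each). Sptbn1, a spectrin of the membrane skeleton, had 50 and 81 site reads in 4T1, against 187 and 215 in 168FARN, while its last exon held 241 and 452 in 4T1, against 214 and 306 in 168FARN. Bnip2 had 22 and 26 site reads in 4T1, against 58 and 56 in 168FARN, while its last exon held 1315 and 1825 in 4T1, against 848 and 1093 in 168FARN. In Bnip2 the ends moved by nearly the same amount in opposite directions, -1.0 ± 0.15 at the site and 0.94 ± 0.14 at the last exon. Wdr70 had 72 and 97 site reads in 4T1, against 165 and 188 in 168FARN, while its last exon held 126 and 196 in 4T1, against 111 and 135 in 168FARN. Dlk2, a Notch-family ligand-like protein, had 2 and 4 site reads in 4T1, against 17 and 17 in 168FARN, while its last exon held 296 and 258 in 4T1, against 148 and 133 in 168FARN. Med14, a Mediator subunit on chromosome X, had 2 and 5 site reads in 4T1, against 12 and 14 in 168FARN, while its last exon held 77 and 132 in 4T1, against 49 and 52 in 168FARN. Site reads did not overlap between the lines in any of these 6 genes.

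Nom1 had no site read in 4T1, against 10 and 11 in 168FARN, which allows a use of up to 0.840% in 4T1, while its last exon held 139 and 218 in 4T1, against 80 and 119 in 168FARN. Nop2, an rRNA methyltransferase, had 1 and 1 site reads in 4T1, against 9 and 10 in 168FARN, while its last exon held 672 and 635 in 4T1 and 614 and 617 in 168FARN. Nsd1, a histone H3K36 methyltransferase, had 1 and 1 site reads in 4T1, against 7 and 7 in 168FARN, while its last exon held 11 and 25 in 4T1, against none in 168FARN. These 3 rest on few reads at the site. Ccnl2, a cyclin tied to splicing, had 6 and 8 site reads in 4T1, against 29 and 29 in 168FARN, while its last exon held 130 and 216 in 4T1, against 132 and 152 in 168FARN. Tmem128 had 7 and 9 site reads in 4T1, against 21 and 29 in 168FARN, while its last exon held 255 and 272 in 4T1, against 196 and 200 in 168FARN. Exd2, an exonuclease of DNA repair, had 1 and 3 site reads in 4T1, against 11 and 13 in 168FARN, while its last exon held 56 and 64 in 4T1, against 38 and 39 in 168FARN. Several of these calls were lost with 1 library left out (edgeR). The site call of Nsd1 was lost with any library left out, and that of Med14 with any but 4T1 replicate 2. That of Cflar was lost without 4T1 replicate 1 or 168FARN replicate 2. That of Exd2 was lost without either 168FARN library, and that of Tmem128 without 168FARN replicate 2. The last-exon call of Exd2 was lost with any library left out, and that of Nop2 with any but 4T1 replicate 2. Those of Ccnl2 and Wdr70 were lost with any but 4T1 replicate 1. That of Tmem128 was lost without either 168FARN library, and that of Sptbn1 without 4T1 replicate 2 or 168FARN replicate 1.

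In 3 genes both ends fell, and the site fell further. Usp21, a deubiquitinase, had 2 and 3 site reads in 4T1, against 42 and 46 in 168FARN, while its last exon held 75 and 58 in 4T1, against 150 and 144 in 168FARN. Nup98, a nuclear pore protein, had 4 and 5 site reads in 4T1, against 35 and 38 in 168FARN, while its last exon held 144 and 233 in 4T1, against 287 and 326 in 168FARN. Oard1, which removes ADP-ribose from proteins, had 5 and 6 site reads in 4T1, against 42 and 38 in 168FARN, while its last exon held 155 and 167 in 4T1, against 291 and 282 in 168FARN. The site falls were -3.83 ± 0.23, -2.74 ± 0.20 and -2.59 ± 0.24, in that order, against last-exon falls of -0.88 ± 0.25, -0.47 ± 0.18 and -0.58 ± 0.19. All 3 last-exon calls were lost with 1 library left out, with edgeR adjusted p up to 0.0878 for Usp21 without 4T1 replicate 2, 0.269 for Nup98 without 168FARN replicate 2 and 0.218 for Oard1 without 168FARN replicate 1. The Nup98 last-exon call was also lost with TMM scaling (edgeR adjusted p = 0.068) and with peak-list totals (0.0582).

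In 3 other genes with lower use both ends rose, and the last exon rose further. Wfdc2, a secreted whey acidic protein-type inhibitor of epithelia, had 238 and 224 site reads in 4T1, against 1 and 2 in 168FARN. Its last exon had 11148 and 10511 reads in 4T1, against 4 and 6 in 168FARN, so its site was used less in the line where it had nearly all of its reads. Its use was 2.09% ± 0.00258 in 4T1 and 22.5% ± 3.54 in 168FARN (SD, n = 2 each), and the 168FARN value rests on 13 reads in all. The difference in use was lost without either 168FARN library (edgeR adjusted p = 0.0573 without replicate 1 and 0.218 without replicate 2). The last exon of Wfdc2 is entered here at 2 times its reads in the authors' U1 table (11148 here and 5574 there in 4T1 replicate 1). Those of Med24 and Anxa3 also stand at 2 times the reads of that table, and for Gtf2f2, Nup37, Snrnp35, St6galnac6 and Txnrd2 at least 2 libraries list a peak with 50% of the entered reads. A doubling in every library leaves fold changes between the lines as they are and lowers the use printed for these 9 sites. Other genes differed between the tables too, since 12 of the 19 genes in both agreed within 5% in both 4T1 libraries. In 4T1, Tcp1 had 1904 and 2485 last-exon reads here and 1125 and 1442 in the U1 table. Heatr3 had 376 and 503 here and 537 and 729 there. Traf1, an adaptor of tumour necrosis factor receptors, had 27 and 28 site reads in 4T1, against 13 and 15 in 168FARN, while its last exon held 127 and 141 in 4T1, against 5 and 9 in 168FARN. Ddah1, which degrades methylarginines, had 111 and 105 site reads in 4T1, against 72 and 83 in 168FARN, while its last exon held 770 and 780 in 4T1, against 201 and 204 in 168FARN. Its site rise of 0.73 ± 0.16 was lost without either 168FARN library, at 0.70 without replicate 1 and 0.77 without replicate 2. With DESeq2 the site rises of Ddah1 (adjusted p = 0.332) and Traf1 (adjusted p = 0.161) did not pass, which left only Wfdc2 of these 3 genes.

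At 19 sites the last exon rose in 4T1 and the site did not pass the test. In this class lie 8 of the 11 genes whose last exon had at most 2 reads in the 168FARN libraries together, among them both listed genes of an epithelial list of 25. Spint2, a Kunitz-type inhibitor of serine proteases on epithelial cells, had 2 and 3 site reads in 4T1, against 7 and 6 in 168FARN. Its last exon had 963 and 965 reads in 4T1 and none in 168FARN, which makes it at least 766-fold higher in 4T1. All of its few 168FARN reads therefore came from the intron, and its use was 0.259% ± 0.0726 in 4T1 and 100% in both 168FARN libraries. Cblc, an epithelial ubiquitin ligase of the Cbl family, had 3 and 7 site reads in 4T1, against 1 and 4 in 168FARN, while its last exon held 55 and 50 in 4T1, against none in 168FARN. Its last exon was at least 41.9-fold higher in 4T1, and its difference in use was lost without 168FARN replicate 2 (edgeR adjusted p = 0.0734).

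Gpr126, an adhesion receptor coupled to G proteins, had 10 and 6 site reads in 4T1, against 4 and 7 in 168FARN, while its last exon held 78 and 166 in 4T1, against 0 and 1 in 168FARN. Camk1d, a calmodulin-dependent kinase, had 33 and 19 site reads in 4T1, against 37 and 33 in 168FARN, while its last exon held 24 and 51 in 4T1, against none in 168FARN. In neither gene did the site pass, with differences of 0.78 ± 0.51 and -0.18 ± 0.39 (edgeR adjusted p = 0.24 and 0.721). Tsnax_1, as the table names it, had 8 and 5 site reads in 4T1, against 2 and 0 in 168FARN, while its last exon held 209 and 278 in 4T1, against none in 168FARN. Ucp2, a mitochondrial carrier, had 3 and 1 site reads in 4T1, against 0 and 2 in 168FARN, while its last exon held 104 and 115 in 4T1, against none in 168FARN. Their differences in use rest on 2 reads in 168FARN each, and both were lost with 1 library left out (edgeR adjusted p = 0.9995 for Tsnax_1 without 168FARN replicate 1 and for Ucp2 without 168FARN replicate 2).

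**Figure D4:**
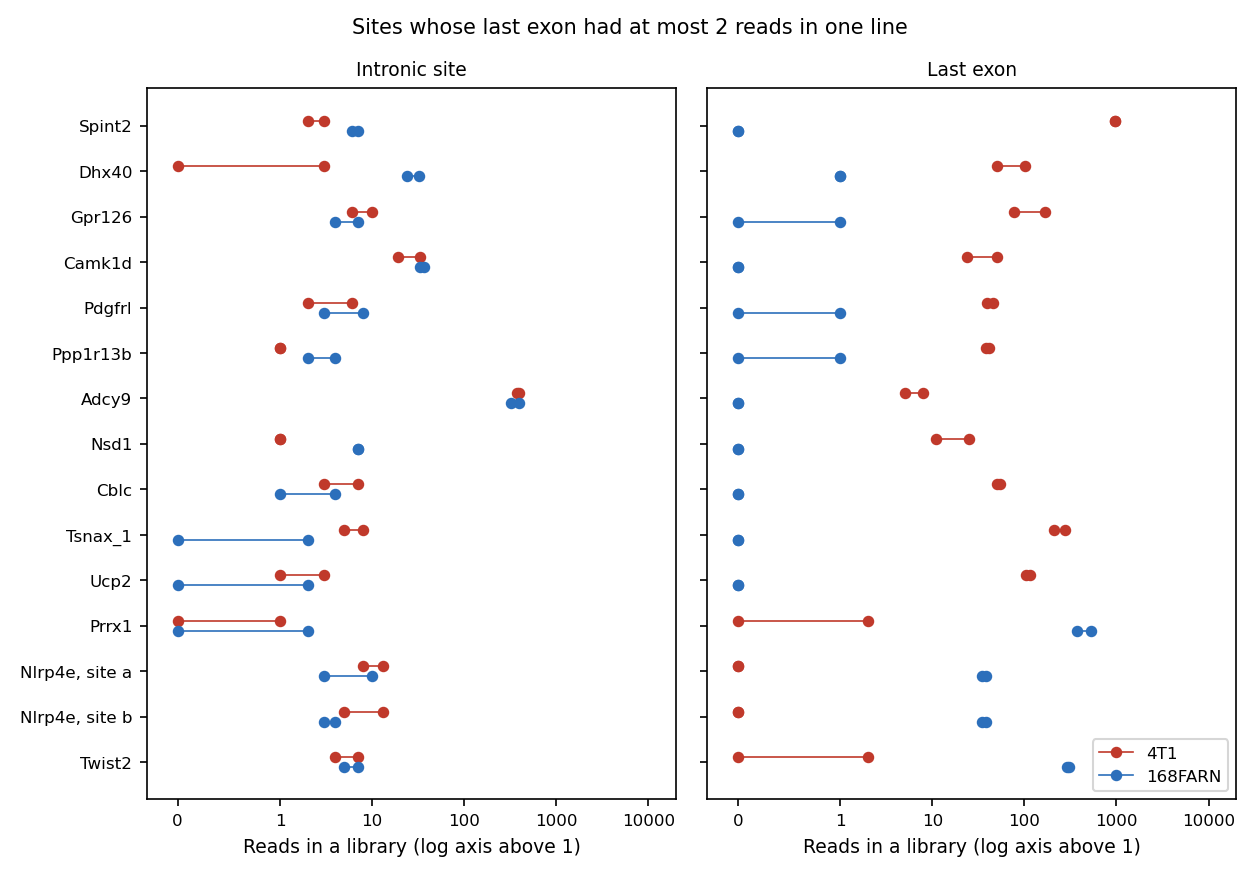
Reads in each library at the intronic site (left) and the last exon (right), on a log axis above 1 read, for the 15 sites whose last exon had at most 2 reads in the libraries of either line. Red points are the 2 4T1 libraries and blue points the 2 168FARN libraries. At Spint2 the last exon had 963 and 965 reads in 4T1 and none in 168FARN while the site had under 10 reads in every library, and at Twist2 the last exon had 2 and 0 reads in 4T1, against 309 and 293 in 168FARN.

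A smaller change at a site with many reads was seen in Ubap2l of the same class. It had 163 and 174 site reads in 4T1, against 251 and 265 in 168FARN, while its last exon held 327 and 331 in 4T1, against 200 and 213 in 168FARN. Its last exon rose by 0.93 ± 0.18, and its site, at -0.36 ± 0.11, did not pass (edgeR adjusted p = 0.0533). Adcy9, an adenylate cyclase, passed at neither end. Its site had 389 and 371 reads in 4T1, against 398 and 325 in 168FARN, and its last exon had 8 and 5 reads in 4T1, against none in 168FARN. Nearly all Adcy9 reads in both lines thus came from the intronic site, at 98.3% ± 0.485 in 4T1 and 100% in both 168FARN libraries. Other genes whose last exon rose while the site did not pass were Slc25a13, Med24, Pdgfrl, Gtf2f2, Ppp1r13b, Anxa3, Cdc123, Angptl2, Atp11a and Pfdn1. At Angptl2 the site differed by -1.83 ± 0.66 and the last exon by 0.40 ± 0.15. The changes were -1.96 ± 1.13 and 1.88 ± 0.20 at Slc25a13, and -1.30 ± 0.42 and 0.90 ± 0.14 at Cdc123. In these genes the site moved as far as the last exon or further. The Angptl2 last-exon call was lost with TMM scaling (edgeR adjusted p = 0.0639), peak-list totals (edgeR, 0.0755) and DESeq2 (0.151). Sf3b2 was the other site that passed at neither end, with 7 and 0 site reads in 4T1, against 18 and 20 in 168FARN, while its last exon held 1991 and 2088 in 4T1 and 2714 and 2682 in 168FARN.

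Among the 21 sites with higher use in 4T1, the largest rise with many reads was in Cpeb3, which binds the cytoplasmic polyadenylation element of mRNAs. Its site (chr19:37179139-37179422, minus strand) had 67 and 80 reads in 4T1, against 6 and 3 in 168FARN, a rise of 4.24 ± 0.27 (edgeR adjusted p = 0.00264). Its last exon had 7 and 12 reads in 4T1, against 15 and 24 in 168FARN, and did not pass (-0.78 ± 0.67, edgeR adjusted p = 0.309). Most Cpeb3 reads thus came from the intron in 4T1 and from the last exon in 168FARN, at 88.7% ± 2.53 in 4T1, against 19.8% ± 12.3 in 168FARN (SD, n = 2 each). Zwint, a kinetochore protein, had a use of 37.0% ± 2.77 in 4T1, against 22.3% ± 0.845 in 168FARN (SD, n = 2 each), while its last exon held 300 and 335 in 4T1 and 431 and 469 in 168FARN. The rise of its site, 0.78 ± 0.12, was lost without either 168FARN library (edgeR adjusted p = 0.0534 without replicate 1 and 0.076 without replicate 2). Ube4b, a ubiquitin chain-elongation factor, had 32 and 22 site reads in 4T1, against 3 and 5 in 168FARN, while its last exon held 260 and 321 in 4T1 and 345 and 335 in 168FARN. Its last exon differed by 0.01 ± 0.17.

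At 6 sites 168FARN had no site read. Padi2, a peptidylarginine deiminase, had 12 and 7 site reads in 4T1, at least 7.71-fold more than in 168FARN, while its last exon held 75 and 89 in 4T1 and 130 and 138 in 168FARN. The noncoding gene AI506816 had 9 and 10 site reads in 4T1, at least 7.52-fold more than in 168FARN, while its last exon held 59 and 74 in 4T1 and 126 and 118 in 168FARN. Snrnp35, a protein of the minor spliceosome's U11/U12 particle, had 4 and 5 site reads in 4T1, at least 3.54-fold more than in 168FARN, while its last exon held 66 and 77 in 4T1 and 178 and 188 in 168FARN. In all 3 genes each 4T1 library had site reads and fewer last-exon reads than either 168FARN library. Trps1, a GATA-type repressor of transcription, had 8 and 43 site reads in 4T1, while its last exon held 42 and 120 in 4T1, against 59 and 115 in 168FARN. The 4T1 libraries differed from each other at both Trps1 ends, its use was 21.2% ± 7.34 in 4T1 (SD, n = 2) and at most 1.72% in 168FARN by the floor, and the site did not pass the test (edgeR adjusted p = 0.0639).

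Slc35b2, which carries the sulfate donor PAPS into the Golgi, had 9 and 10 site reads in 4T1, against 1 and 0 in 168FARN, while its last exon held 180 and 129 in 4T1, against 363 and 366 in 168FARN. Heatr3 had 19 and 20 site reads in 4T1, against 1 and 0 in 168FARN, while its last exon held 376 and 503 in 4T1, against 248 and 304 in 168FARN, and was the only listed site with higher use whose ends both rose. The sialyltransferase gene St6galnac6 held 2 sites. Site a (chr2:32471802-32472371) had 15 and 6 reads in 4T1, against 6 and 5 in 168FARN, and site b (chr2:32459306-32459901) had 4 and 5 in 4T1, against none in 168FARN. Their shared last exon had 210 and 204 reads in 4T1, against 574 and 530 in 168FARN, and fell by 1.16 ± 0.17 (edgeR adjusted p = 2.12e-10). The site calls that rest on few reads were lost with 1 4T1 library left out (edgeR), with adjusted p up to 0.315 for Snrnp35 and St6galnac6 site b, 0.0815 for AI506816 and 0.0571 for Slc35b2 without replicate 2, and 0.149 for Padi2 without replicate 1. The last-exon call of AI506816 was lost with any library left out (edgeR adjusted p up to 0.254, without 168FARN replicate 1).

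At 9 sites with higher use the last exon fell and the site did not pass the test, and both listed genes of a mesenchymal list of 25 are among them. Twist2, a mesenchymal transcription factor, had 4 and 7 site reads in 4T1, against 7 and 5 in 168FARN. Its last exon had 2 and 0 reads in 4T1, against 309 and 293 in 168FARN, and was 254 times as high in 168FARN (95% interval 69.9 to 2100, exact conditional binomial). Use of its site was 83.3% ± 23.6 in 4T1 and 1.95% ± 0.380 in 168FARN (SD, n = 2 each), although the site itself differed by 0.11 ± 0.41. Prrx1, another such factor, had 0 and 1 site reads in 4T1, against 0 and 2 in 168FARN, while its last exon held 2 and 0 in 4T1, against 371 and 525 in 168FARN. Its 4T1 use rests on 3 reads, 1 at the site and 2 at the last exon, and its call was lost without 4T1 replicate 2 (edgeR adjusted p = 0.929). Ngef, a guanine nucleotide exchange factor, had 9 and 9 site reads in 4T1, against 7 and 2 in 168FARN, while its last exon held 11 and 6 in 4T1, against 261 and 202 in 168FARN.

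Nlrp4e, of the NOD-like receptor family, held 2 sites whose last exon had no read in 4T1, against 38 and 35 in 168FARN. Site a (chr7:24143791-24143854) had 13 and 8 reads in 4T1, against 10 and 3 in 168FARN, and site b (chr7:24142448-24143027) had 5 and 13 in 4T1, against 4 and 3 in 168FARN. Neither site passed the test, and both are uncertain, because Nlrp4e belongs to a family of closely related genes and the sources used here do not state how reads were placed among copies. The last exons of As3mt, Traf5 and Trp53 fell in 4T1, with changes of -4.60 ± 0.26, -3.8 ± 0.62 and -2.46 ± 0.23, beside site changes that did not pass (edgeR adjusted p = 0.105, 0.512 and 0.183). St6galnac6 site a completes this class.

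The 250 bases before the start of Spint2, Wfdc2 and Twist2 are shown because their last exons were read almost only in 4T1 (Spint2 and Wfdc2) or almost only in 168FARN (Twist2). They are RefSeq sequences of GRCm38.p6, a later build than that of the sites, read 5' to 3' on the gene's strand. Capitals mark CACCTG or its reverse complement CAGGTG, the E-box that repressors of epithelial genes such as Snail and Zeb proteins are known to bind. The Spint2 stretch is chr7:29281978-29282227 (minus strand), that of Wfdc2 is chr2:164562465-164562714 (plus strand, the first of 2 listed starts), and that of Twist2 is chr1:91801211-91801460 (plus strand).
Spint2: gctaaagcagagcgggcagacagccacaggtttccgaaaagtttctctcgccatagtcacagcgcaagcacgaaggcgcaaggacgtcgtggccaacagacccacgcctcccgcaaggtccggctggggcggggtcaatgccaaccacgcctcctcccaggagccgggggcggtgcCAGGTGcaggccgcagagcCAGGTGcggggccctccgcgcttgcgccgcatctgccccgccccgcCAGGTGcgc
Wfdc2: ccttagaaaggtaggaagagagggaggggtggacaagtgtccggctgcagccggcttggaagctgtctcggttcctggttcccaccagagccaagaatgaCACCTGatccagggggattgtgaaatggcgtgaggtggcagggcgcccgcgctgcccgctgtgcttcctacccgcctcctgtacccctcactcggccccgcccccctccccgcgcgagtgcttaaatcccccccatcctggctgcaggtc
Twist2: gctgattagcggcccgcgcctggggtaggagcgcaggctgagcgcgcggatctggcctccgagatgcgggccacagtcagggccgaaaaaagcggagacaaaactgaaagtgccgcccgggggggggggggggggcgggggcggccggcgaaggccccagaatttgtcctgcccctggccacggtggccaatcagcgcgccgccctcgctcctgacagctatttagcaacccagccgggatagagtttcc
The Spint2 stretch held 3 matches, beginning 74, 55 and 9 bases before the start, the Wfdc2 stretch held 1 at 150 bases, and the Twist2 stretch held none. Of all 32851 RefSeq stretches of this length, 17.2% held a match. Counted by gene, 13 of the 65 listed genes that have a stretch held a match in at least 1, against 5252 of all 27025 genes (19.4%). A match is a string of letters and says nothing of binding in these cells. The 3 genes are examples, since the last exons of Cblc, Tsnax_1, Ucp2 and Prrx1, among others, were also read almost only in 1 line. The Prrx1 stretch held no match and is not printed, and those of the others are not shown. Nothing is read from the contrast between the 3.

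The other genes of these pathways were looked up in gene lists chosen with earlier results of these data known. The cleavage and polyadenylation list had 2 of 31 genes listed, Wdr33 and Ccnk, both lower in 4T1. The U1 particle list had 1 of 20, Snrnp35, higher in 4T1, and it belongs to the minor spliceosome rather than to U1. The SR and hnRNP list had 0 of 27. The cell cycle list had 2 of 30 (Ccnd2 and Tpx2) and the DNA repair list 1 of 25 (Exd2), all lower. The epithelial list had 2 of 25, both lower, and the mesenchymal list 2 of 25, both higher. The list of transport through the endoplasmic reticulum and Golgi had 3 of 28, with 5 lower sites in Gosr2 and Uggt1 and 1 higher in Slc35b2. The actin cytoskeleton list had 3 of 30, with lower sites in Hip1 and Tpm1 and a higher one in Ngef. These counts describe the lists, and nothing is read from them. No gene of the immune list of 12 or of the fibroblast and endothelial list of 10 was listed, and their levels were not measured here, since no annotation tied other peaks to genes. In the 4 epithelial and mesenchymal genes it was the last exon that differed between the lines, with 50 to 965 reads a library in 4T1 for the epithelial pair and 293 to 525 a library in 168FARN for the mesenchymal pair, and their part in the other results was not tested.

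The listed regions were 64 to 2485 bp wide with a median of 462 bp, and 46 of 85 were on the plus strand. For 30 sites in 28 genes a single peak of the lists held exactly the last-exon reads of the table, which places the last-exon end. The distance between the 2 ends had a median of 8.07 kb and ran between 0.740 kb in Ucp2 and 137 kb in Slc25a13. It was 7.43 kb at the median of 20 lower sites and 8.07 kb at that of 10 higher sites.

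The same sites could be read in 4T07 (invasive) and 67NR (non-invasive), a pair that shares no library with 4T1 and 168FARN. Of the 85 sites, 21 were also listed for 4T07 against 67NR, which is 24.7% of the 85 and 9.81% of that table's 214 sites. For comparison, 17 of the 1549 other sites that the authors listed for the U1 antisense treatment were in that table, or 1.10%. Those sites were listed for the treatment of 4T1 and not for a difference between lines. Their regions were also merged separately, so a region in both may fail to match. The gap between these shares therefore partly follows from how the sets were chosen, and nothing is read from it. The direction was the same at 15 of the 21, lower in the invasive line at 11 (among them Spint2, Dhx40, Gpr126, Camk1d, Dlk2, Slc25a13, Tpx2, Tpm1 site b, Hip1 and Exd2) and higher at 4 (Trps1, Snrnp35, AI506816 and Twist2).

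Dhx40 had a use of 0.761% ± 1.08 in 4T07, against 91.0% ± 6.14 in 67NR (SD, n = 2 each), close to the exchange between 4T1 and 168FARN. Its site had 0 and 3 reads in 4T07, against 39 and 41 in 67NR, and its last exon had 161 and 194 reads in 4T07, against 6 and 2 in 67NR. Spint2 had 730 and 849 last-exon reads in 4T07, against 5 and 0 in 67NR. Both genes thus had nearly all last-exon reads in the invasive lines. Exd2 had a use of 0.962% ± 1.36 in 4T07, against 33.6% ± 0.400 in 67NR, and Dlk2 one of 1.87% ± 0.0742 in 4T07, against 70.8% ± 5.89 in 67NR (SD, n = 2 each). AI506816 had a use of 32.2% ± 4.59 in 4T07 (SD, n = 2), with no site read in either 67NR library, and Trps1 one of 26.8% ± 1.19 in 4T07, against 0.412% ± 0.583 in 67NR (SD, n = 2 each). Twist2 had no last-exon read in 4T07, against 74 and 54 in 67NR.

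The direction was opposite at 6 sites in 5 genes. Auh, an enoyl-CoA hydratase that also binds AU-rich RNA, had a use of 8.83% ± 2.39 in 4T1, against 43.7% ± 10.5 in 168FARN, but one of 32.5% ± 0.439 in 4T07, against 12.9% ± 4.95 in 67NR (SD, n = 2 each). Ddah1 had a use of 12.2% ± 0.520 in 4T1, against 27.6% ± 1.80 in 168FARN, but one of 48.8% ± 3.18 in 4T07, against 18% ± 1.12 in 67NR. As3mt, which methylates arsenic, was used at 7.05% ± 2.89 in 4T1 with no site read in 168FARN. It had no site read in 4T07 and was used at 93.8% ± 8.84 in 67NR, where 15 of its 16 reads came from the site. Its 4T1 use, 5.00% and 9.09% over last exons of 19 and 10 reads, rests on very few site reads. The As3mt site did not pass between 4T1 and 168FARN (edgeR adjusted p = 0.105). The remaining 3 were both St6galnac6 sites and Ptges3, the Hsp90 cochaperone p23, with a mean of at most 4.76% in any line. At each of the 6 the libraries of a pair did not overlap, and the difference between the pairs was not tested.

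**Figure D5:**
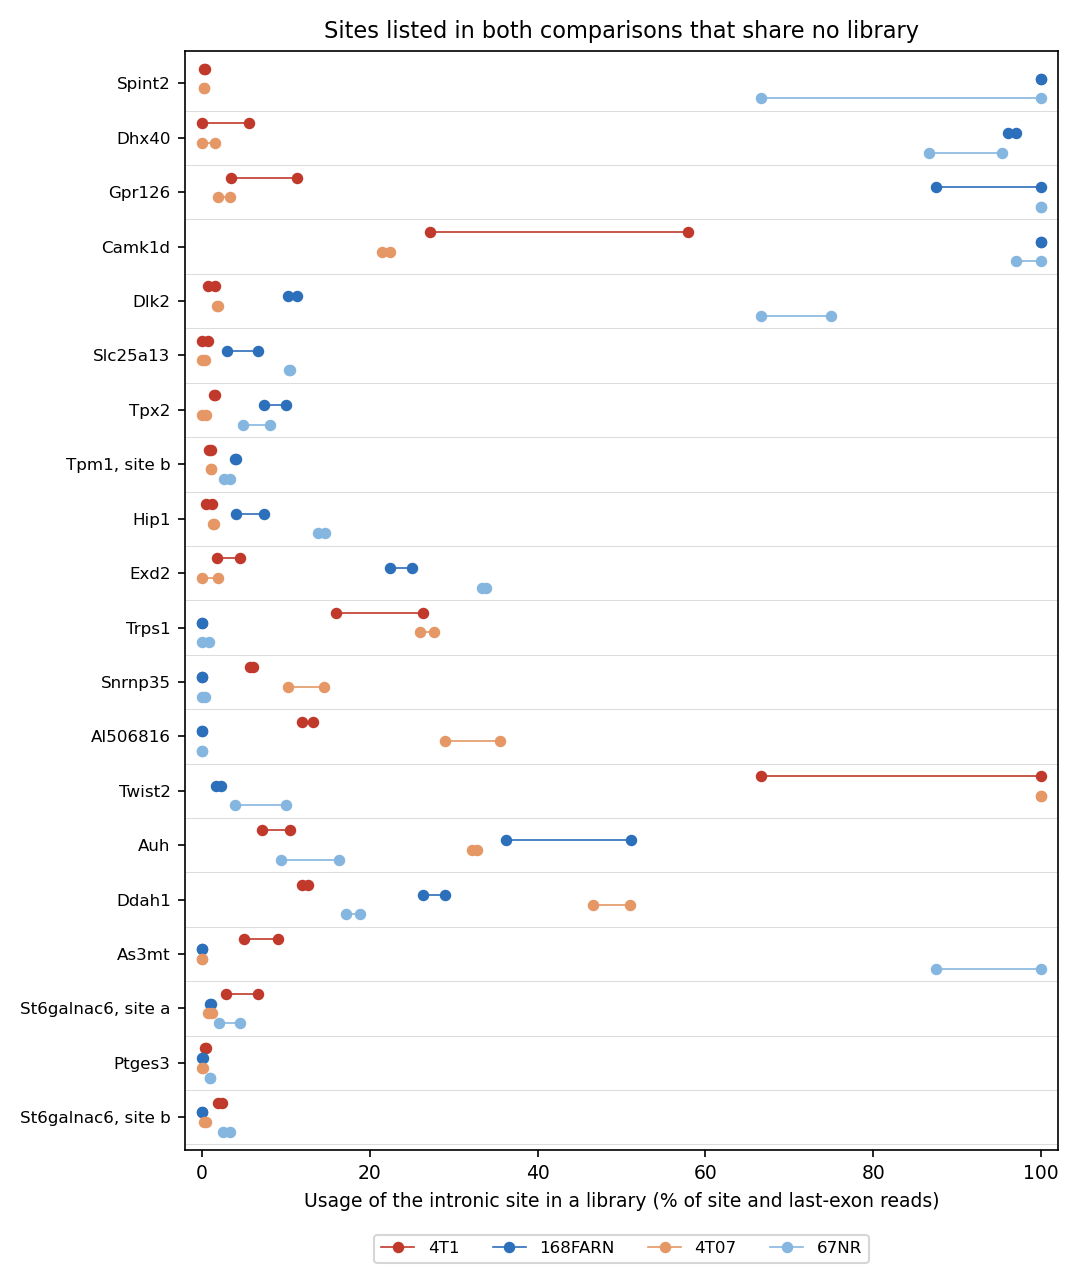
Use of the intronic site in each library of 4 lines, in percent of site and last-exon reads, for 20 of the 21 sites listed both for 4T1 against 168FARN and for 4T07 against 67NR. In each row the lines run from top to bottom as 4T1 (red), 168FARN (blue), 4T07 (orange) and 67NR (light blue), each with 2 points joined by a line. In the upper 14 rows the invasive lines lie on the same side of their partner, as at Dhx40 with 2.83% in 4T1, 96.5% in 168FARN, 0.761% in 4T07 and 91.0% in 67NR, and in the lower 6 rows they lie on opposite sides.

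The remaining deposited comparisons share libraries with this one, so their values are only set side by side. Against the same 168FARN libraries, 4T07 had 55 of the 85 sites listed, 44 lower in both, 10 higher in both and 1 lower in 4T1 but higher in 4T07. Against 67NR, the same 4T1 libraries had 25 listed, 17 lower in both, 7 higher in both and 1 higher against 168FARN but lower against 67NR. No other comparison of lines listed 18 of the sites, among them those of Ccnk, Odf2, Mms22l, Tcp1, Zwint, Heatr3, Slc35b2 and Prrx1. In the authors' table of 4T1 cells given an antisense oligonucleotide against U1, 12 of the 85 sites (14.1%) overlapped a listed region. Of the 9 that were lower in 4T1 than in 168FARN, 7 were higher under the antisense and 2, Cflar and Wfdc2, were lower. Of the 1561 sites that it lists, 87.6% were higher under the antisense, so nothing is read from the 7. At Fgfr1op2, one of the 7, the region in that table had 0 and 0 reads in 4T1, where the site listed against 168FARN had 60 and 49, so the 2 tables did not count the same reads there. Tpm1 site b was used at 4.20% ± 0.368 under the antisense and 0.946% ± 0.230 in 4T1 in that table (SD, n = 2 each). Odf2 was used at 31.3% ± 6.37 under the antisense and 8.60% ± 2.73 in 4T1 in that table. Cflar was used at 2.35% ± 0.0635 under the antisense and 12.9% ± 2.42 in 4T1 in that table. Of the 3 that were higher in 4T1, Zwint was higher under the antisense and Ube4b and Cpeb3 were lower. The regions of that table are narrower for several of these sites, so its 4T1 values can differ from those above.

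Across all 3' ends of the same 4 libraries, whether intronic or not, 15160 merged peaks passed the low-count filter, of which 11.3% were lower in 4T1 and 9.82% higher (edgeR, TMM scaling, adjusted p under 0.05 over all peaks). Ends that differ between these lines were thus common, and calls went both ways in like numbers. Only 38 of the listed sites had a merged peak past that filter, and a site could pass through the line where it is high, so their own calls there are not counted. The background itself depends on every library, since edgeR called 0 peaks without 168FARN replicate 1 (1585 lower and 1712 higher at an unadjusted p under 0.05) and 0 without 168FARN replicate 2 (1492 lower and 1616 higher), while 360 lower and 90 higher were called without 4T1 replicate 1, and 440 lower and 196 higher without 4T1 replicate 2. The listing of peaks is also incomplete, because 18.1% of the 299 site values above 0 had no peak in the library's list. At 35 others the list held fewer reads than the authors' table. At Adcy9 the 4T1 lists held 1 and 2 site reads, far fewer than the table gives. A missing peak is therefore no 0, yet the fit over all peaks entered it as 0. With only peaks listed in all 4 libraries, 1884 of 12300 were lower and 1519 higher.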

How the data were processed

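Polyadenylated 3' ends were sequenced in 2 libraries each of 4T1 and 168FARN. The mm9 build, DESeq2 1.4.5, bedtools 2.17.0, Bowtie2 2.2.5 and SAMtools 1.1 were used per the submitters' processing notes, whose steps are not given in the sources used here. Per the file headers, the authors deposited peak lists of read counts per peak for each library and tables of sites. In those tables the authors deposited, as signal, normalized reads for the site and the last exon, with a log2 fold change, its standard error and test statistic as scores, and p-values. All normalized values were whole reads times 1 factor per library (within 0.1 read), so reads were recovered and tested although the deposited unit is normalized. That the sites are intronic rests on the authors' tables, since no mm9 annotation was used here.

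Use was site reads over site and last-exon reads. Reads were tested with edgeR 4.0.16 (R 4.3.3), quasi-likelihood, with the authors' factors, for site relative to last exon, site alone and last exon alone, Benjamini-Hochberg adjusted over 85 sites. Peaks of the 4 lists were merged, with 0 entered where a library listed no peak, and tested with TMM scaling after a low-count filter. Log2 changes of means used a pseudocount of 0.5. Both tests were checked on simulated data. Alternatives were DESeq2 1.42.0, limma 3.58.1, other scalings, pseudocounts and filters, a replicate block and leaving out each library. The members and gene lists were chosen with earlier results of these data known. The named genes are the 12 lower and 10 higher sites with the largest deposited fold changes, sites with a mean of at least 50 site reads, genes with more than 1 site, sites past the test at both ends and list members, and other genes named were chosen after their values were seen. Values of a few members are not reported here. Figures were drawn with matplotlib 3.10.9.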

Additional observations from a re-analysis of the deposited data

Results flagged for a closer look

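At 6 sites the invasive line lay on opposite sides of its partner in the 2 pairs that share no library, 4T1 with 168FARN and 4T07 with 67NR, with no overlap between libraries in either pair. The difference between the pairs was not tested. In the authors' deposited table the log2 fold change of site relative to last exon, 4T07 minus 67NR, was 1.34 for Auh and 1.92 for Ddah1, both lower in 4T1 than in 168FARN. It was -3.93 for As3mt, -1.81 for Ptges3, -1.33 for St6galnac6 site a and -2.17 for St6galnac6 site b in the authors' deposited table, all 4 higher in 4T1 than in 168FARN. At Auh the site had 42 and 47 reads in 4T07, against 12 and 19 in 67NR. At Ddah1 the last exon had 170 and 188 reads in 4T07, against 540 and 505 in 67NR. At As3mt the last exon had 92 and 99 reads in 4T07, against 1 and 0 in 67NR, and its use in 4T1 rests on very few site reads.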

How the results depend on the processing

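The difference in use at every listed site, and every site or last-exon change that passed the main test, kept its sign under the alternatives run. Ends that did not pass were not checked for this. In the fit over all peaks, whose lists are incomplete, the Zwint and Ddah1 peaks had the other sign than their sites (-0.26 and -0.57). A deposited adjusted p of at most 0.01 left 25 lower and 11 higher sites. Of the sites with higher use, 1 changed at both ends, and 3 did with a pseudocount of 2, 2 with peak-list totals and 1 to 2 with a library left out. With at least 10 reads in every library the median difference in use was -9.719 points at lower and 7.52 at higher sites, against -10.92 and 12.57. In the test of site reads, whatever the last exon did, DESeq2 called 26 sites lower, against 40 with edgeR. Over all peaks, DESeq2 called 2566 lower and 2470 higher, and no low-count filter gave 2627 lower and 2496 higher, against 1717 and 1489. Leaving out a library gave 0 to 440 lower and 0 to 196 higher. With a replicate block edgeR called 0 lower and 0 higher there (2853 and 2719 at an unadjusted p under 0.05). On the listed sites the block gave 64 lower and 21 higher, and lost the calls at the Nsd1 site (adjusted p = 0.0832) and the Ccnl2 and Nup98 last exons (0.0743 each), edgeR. The numbers are not known to pair libraries (correlation of deviations 0.0633 over 15160 peaks). The cause of these differences was not tested. Few site reads limit the depth, since 7 sites had under 10 in every library.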
